A study of Mus musculus with 4 samples.

Results

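The posterior Hox genes of groups 10 to 13 are the homeobox genes at the 5′ ends of the Hox clusters, and 9 of the 28692 genes in the count tables were taken by name: Hoxa10, Hoxa11, Hoxa13, Hoxc10, Hoxc11, Hoxd10, Hoxd11, Hoxd12 and Hoxd13. They were followed in 4 single-cell RNA libraries of intestinal stroma from E12.5 mouse embryos, 2 of the small intestine (SI) and 2 of the large intestine (LI, with the cecum). All 4 came from untreated embryos of an EYFP line on C57BL/6, pooled from 3 to 5 embryos, in 2 independent experiments. Cells had been sorted as live, CD45-, Ter119-, CD31-, EpCAM-, Itgb1+ and YFP+, so blood, endothelial and epithelial cells were gated out of both regions. Some sample fields name adult mice or colonic lamina propria although the titles give E12.5, and whether a library was made with 3′ or 5′ chemistry is not given per library.

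After filtering, 6106 cells of LI 1, 4603 of LI 2, 5138 of SI 1 and 6247 of SI 2 remained, with median counts of 4220.5, 8760, 8829 and 8382 UMIs (unique molecular identifiers, 1 per captured RNA molecule) per cell. LI 1 was therefore the shallowest library, and pairs of libraries shared 8 to 15 cell barcodes. Cells were put into 4 groups by marker genes. Mesothelial cells had Upk3b and at least 3 UMIs over Upk3b, Upk1b, Krt19 and Krt7, neural cells had Sox10 and a further neural marker, Acta2-high cells had at least 16 UMIs of Acta2 (smooth-muscle actin) per 10000, and cells with none of these markers were called other mesenchyme. Between 23 and 116 cells per library held Upk3b or Sox10 without meeting these rules and were left out, as were 0 to 4 mixed cells. Acta2-high is a range of one gene and not a cell type: 187 to 772 cells per library lay between 16 and 32, and 296 to 524 below it between 8 and 16. LI held 5082 and 3325 cells of other mesenchyme, 234 and 751 Acta2-high, 465 and 221 mesothelial and 101 and 186 neural cells, and SI held 3067 and 2959, 1447 and 2667, 266 and 164, and 164 and 260. The groups carried their own markers in every library: Upk3b lay at 677 to 851 counts per 1000000 summed UMIs (CPM) in mesothelial cells, where Msln was at or near 0, Sox10 at 132 to 185 in neural cells, and Acta2 at 3256 to 4869 in Acta2-high cells.

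Hox genes encode homeodomain transcription factors that give cells a position along the head-to-tail axis. Within a cluster the genes at the 3′ end are used anteriorly and those at the 5′ end posteriorly, a relation called collinearity, and the posterior members are used in the hindgut, the urogenital tract, the limb and the caudal trunk. They bind DNA with TALE cofactors of the Pbx, Meis and Pknox families. Neural crest cells, the source of the enteric nervous system, mostly reach the gut from the hindbrain level of the neural tube and so come from a more anterior origin than the hindgut mesoderm.

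The 9 genes lie in 3 of the 4 Hox clusters. On the mm10 build, with GENCODE vM21 gene models, the HoxA members stand next to each other on the minus strand as Hoxa10 (chr6:52231197-52240854), Hoxa11 (chr6:52242106-52245810) and Hoxa13 (chr6:52257694-52260880). Hoxc11 (chr15:102954427-102957708) and Hoxc10 (chr15:102966796-102971893) are on the plus strand, as are Hoxd13 (chr2:74668310-74671599), Hoxd12 (chr2:74675013-74677705), Hoxd11 (chr2:74679557-74687016) and Hoxd10 (chr2:74691924-74695105). The gene span of Hoxc10 overlaps that of Hoxc5 on the same strand over 4451 bases. Exons were not compared, so whether reads from this stretch can be given to one gene was not tested. Hoxc5 itself had 849 and 553 UMIs in SI other mesenchyme against 68 and 117 in LI. Hoxa11 overlaps the antisense gene Hoxa11os over 1418 bases, and Hoxd10 and Hoxd11 overlap the same-strand transcript Gm28309 over 2271 and 3571 bases; neither was analysed here. The other HoxB and HoxC genes of groups 10 to 13 were not among the members and were nearly silent: Hoxb13 and Hoxc12 had 0 UMIs in every cell group of every library and Hoxc13 at most 1.

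The table of RefSeq promoters used here (GRCm38.p6) matched 7 of the 9 members, all but Hoxc10 and Hoxc11. Those of 4 members are printed because their pairs are described below: at 3000 UMIs per cell Hoxa13 and Hoxd13 were rarely found in a cell with Hoxd10, and Hoxd11 was found often with Hoxa11 and Hoxc11. Each line gives the 150 bases before the annotated start, 5′ to 3′ on the gene's strand, at chr6:52260881-52261030 (minus) for Hoxa13, chr2:74668075-74668224 (plus) for Hoxd13, chr2:74691741-74691890 (plus) for Hoxd10 and chr2:74679408-74679557 (plus) for the first of 2 entries of Hoxd11. Capitals mark TTTAT or its reverse complement ATAAA, the AT-rich core bound by posterior Hox proteins in general.
Hoxa13: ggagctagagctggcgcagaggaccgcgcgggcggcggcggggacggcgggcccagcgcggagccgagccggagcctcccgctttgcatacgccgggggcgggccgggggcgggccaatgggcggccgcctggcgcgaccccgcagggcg
Hoxd13: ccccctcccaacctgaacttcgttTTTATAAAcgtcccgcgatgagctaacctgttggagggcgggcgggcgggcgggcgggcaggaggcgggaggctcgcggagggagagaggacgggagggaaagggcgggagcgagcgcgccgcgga
Hoxd10: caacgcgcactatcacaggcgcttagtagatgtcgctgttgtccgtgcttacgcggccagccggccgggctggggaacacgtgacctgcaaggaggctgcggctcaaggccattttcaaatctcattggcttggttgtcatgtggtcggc
Hoxd11: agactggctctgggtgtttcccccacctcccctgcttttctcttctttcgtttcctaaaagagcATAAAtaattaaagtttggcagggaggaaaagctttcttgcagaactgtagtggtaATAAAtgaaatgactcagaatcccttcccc
The 2 matches of Hoxd13 are one stretch read on both strands and overlap each other, and those of Hoxd11 are apart. Of 32851 mouse promoters, 24.1% hold at least 1 match in this window and 6.52% hold 2 or more. Over 250 bases, G and C made up 80% for Hoxa13, 74.4% for Hoxd13, 65.6% for Hoxd10 and 44.8% for this entry of Hoxd11, against a median of 52.4% over all promoters. CpG pairs numbered 35, 31, 20 and 2, against a median of 6. The second entry of Hoxd11 differed from the first, with 60.4% G and C, 20 CpG pairs and 0 matches. The matches are letters in a window and were not tested as binding sites.

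In LI, the 3 mesodermal groups all carried the posterior genes and neural cells hardly did. Levels are CPM over the summed UMIs of a cell group in a library, LI 1 first and LI 2 second, and are not scaled for gene length, so they compare a gene with itself across groups and not one gene with another. In other mesenchyme Hoxa10, a group 10 gene needed for uterine and lumbar patterning, was at 190 and 260, in Acta2-high cells at 103 and 142, in mesothelial cells at 122 and 168 and in neural cells at 4.81 and 1.20. The 2 libraries of other mesenchyme lay above those of every other group.

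Hoxd10, a group 10 gene of the HoxD cluster used in hindlimb motor neurons and limb patterning, was also highest in other mesenchyme, with a wider step. It was at 123 and 148 in other mesenchyme, 68.8 and 72.1 in Acta2-high cells, 54.4 and 59.4 in mesothelial cells and 1.60 and 1.68 in neural cells. None of these 4 pairs overlapped. Hoxc10, the third group 10 gene, was at 110 and 92.0 in other mesenchyme, 54.5 and 36.9 in Acta2-high cells, 74.2 and 65.5 in mesothelial cells and 3.21 and 0.960 in neural cells, again without overlap between groups.

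Of the group 11 genes, which act in kidney and forearm formation, Hoxd11 was at 252 and 223 in other mesenchyme, 232 and 180 in Acta2-high cells, 146 and 154 in mesothelial cells and 1.60 and 0.960 in neural cells. Its Acta2-high libraries overlapped those of other mesenchyme and its mesothelial libraries did not. Hoxa11 was at 56.9 and 54.2, 46.5 and 46.6, 47.0 and 43.3, and 0 and 0 in the same order, so its Acta2-high and mesothelial levels overlapped. Hoxc11 was at 8.56 and 9.43 in other mesenchyme, 19.7 and 8.68 in Acta2-high cells and 3.95 and 3.30 in mesothelial cells, and its Acta2-high libraries overlapped those of other mesenchyme.

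The group 12 and 13 genes, the most posterior of each cluster, had few UMIs. Hoxa13, which is needed for digits and for the terminal hindgut and genital tract, was at 12.3 and 9.86 in other mesenchyme, 7.15 and 11.6 in Acta2-high cells and 7.02 and 12.8 in mesothelial cells, with all 3 groups overlapping. Hoxd13, its HoxD counterpart, was at 3.97 and 4.53, 0.894 and 1.24, and 3.07 and 3.30 in these groups, and its Acta2-high libraries were the lowest of the 3. Hoxd12 was at 2.83 and 2.07, 2.68 and 2.34, and 1.76 and 0.824.

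**Figure D1:**
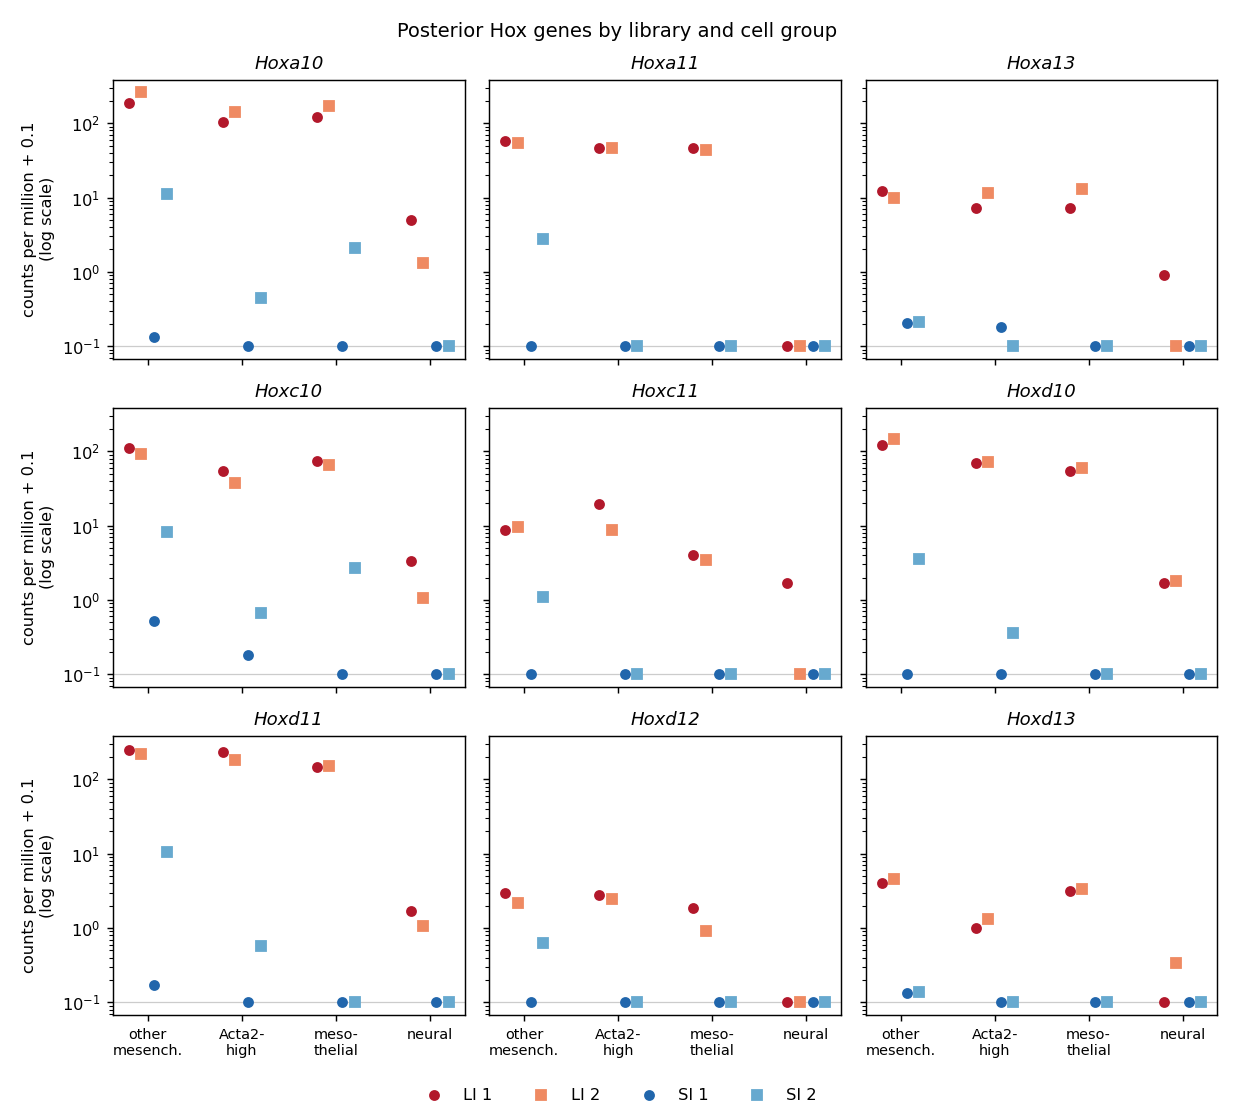
Level of each posterior Hox gene in every library and cell group, as CPM plus 0.1 on a log axis, with circles for replicate 1 and squares for replicate 2, LI in red and orange and SI in blue. The LI points of other mesenchyme, Acta2-high and mesothelial cells lie above all SI points of the same group in each panel, and SI 2 stands above SI 1 in other mesenchyme, with Hoxa10 at 10.9 against 0.035.

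Mesothelial cells of LI had less of 4 of the 9 members than other mesenchyme of LI: Hoxa10, Hoxc10, Hoxd10 and Hoxd11. In the edgeR quasi-likelihood fit over all 16 library sums, with library as a block, 12.4% of 12473 genes were called lower and 15.5% higher in mesothelial cells at an adjusted p under 0.05. The largest of the 4 called differences was that of Hoxd10, with a log2 fold change of -1.20 (SE 0.11, adjusted p = 4.7e-06 in edgeR with Benjamini-Hochberg adjustment). Hoxd11 differed by -0.61 (SE 0.095, adjusted p = 3.4e-04), Hoxa10 by -0.58 (SE 0.11, adjusted p = 0.0015) and Hoxc10 by -0.48 (SE 0.12, adjusted p = 0.010). The other 5 did not pass, with values from -1.28 (Hoxc11, adjusted p = 0.067) to -0.11 (Hoxa13). The median over the 9 members was -0.58 and over all genes tested -0.03. DESeq2 on the same sums called 0 of the 9, with 0 at an unadjusted p under 0.05.

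Acta2-high cells of LI, chosen by the level of Acta2 alone, had less of all 3 group 10 genes than other mesenchyme, at a background of 1.40% of genes called lower and 2.04% higher. Hoxc10 differed by -1.17 on the log2 scale (SE 0.13, adjusted p = 1.3e-04), Hoxd10 by -0.92 (SE 0.10, adjusted p = 2.8e-04) and Hoxa10 by -0.83 (SE 0.12, adjusted p = 6.9e-04). None of the 3 group 11 genes passed, Hoxd11 being at -0.20 (SE 0.093, adjusted p = 0.38), Hoxa11 at -0.19 and Hoxc11 at +0.43. Hoxd13 was at -1.85 (SE 0.48) with an adjusted p of 0.060. The median over the members was -0.20 and over all genes -0.02. Without LI 2, 1 of the 9 was called, DESeq2 called 0, with 2 at an unadjusted p under 0.05, and 8 were called lower when the groups were taken from clusters, where Hoxc11 was at -3.01. A difference between group 10 and group 11 genes was not tested.

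The comparison was not one of smooth-muscle cells with the rest. Cells were also clustered on all genes other than Hox genes. Of the Acta2-high cells of LI, 42 of 234 in LI 1 and 210 of 751 in LI 2 lay in the cluster led by the smooth-muscle gene Myh11, and 59 and 234 in that led by Epha5, while 407 of the 452 LI 1 cells and 95 of the 305 LI 2 cells of the Myh11 cluster counted as other mesenchyme. Within the Epha5 cluster Hoxa10 was at 178 and 292 CPM in Acta2-high cells against 250.1 and 394 in other mesenchyme. There Hoxc10 was at 107 and 60.3 against 158 and 129, and Hoxd10 at 115 and 159 against 209 and 284, so all 3 were lower in both libraries. Other clusters did not all share this: in LI 1 the 15 Acta2-high cells of the Ube2c cluster had more of all 3 than its other mesenchyme (Hoxa10 at 222 against 190, Hoxc10 at 95.3 against 83.6, Hoxd10 at 138 against 91.1), and the 42 of the Myh11 cluster more Hoxa10 (42.9 against 34.9) and Hoxd10 (49.0 against 39.1). In LI 2 all 3 genes were lower in the Acta2-high cells of both these clusters.

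**Figure D2:**
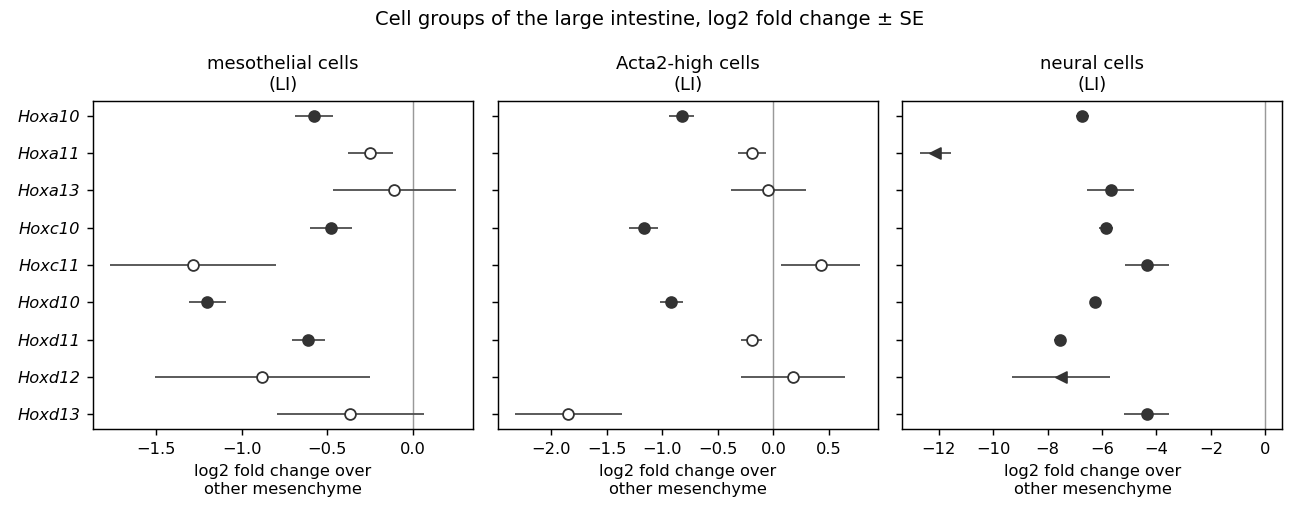
Log2 fold change (± SE) of each member over other mesenchyme of LI, for mesothelial, Acta2-high and neural cells, from the edgeR fit, each panel with its own axis. Filled symbols passed the adjusted threshold and triangles mark genes with 0 UMIs in LI neural cells, whose fitted values are no bound. Hoxa10, Hoxc10 and Hoxd10 are filled in all 3 panels, and the neural values run from -4.33 to -12.1.

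Neural cells carried almost none of the posterior genes in either region. In LI they held 17 and 21 UMIs of the 9 members together, where other mesenchyme held 17208 and 24444, and in SI they held 0 of 2631143 and 0 of 3445643 UMIs. All 9 members were called lower in LI neural cells than in LI other mesenchyme, at a background of 26.8% called lower and 24.2% higher, with a median log2 fold change of -6.24 against -0.07 over all genes. Hoxd11 was lower by -7.54 (SE 0.22, adjusted p = 2.3e-11), Hoxa10 by -6.73 (SE 0.24, adjusted p = 3.6e-11) and Hoxd10 by -6.24 (SE 0.21, adjusted p = 2.1e-10). Hoxa11 and Hoxd12 had 0 UMIs there in both libraries. Without LI 2, 6 of the 9 were called, and DESeq2 called 6, with 7 at an unadjusted p under 0.05.

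The little signal in LI neural cells can be set beside that of mesenchymal RNA in the same cells. The neural level of a member was, at the median, 1.30% and 0.430% of its level in other mesenchyme of the same library. For 10 mesenchyme marker genes the medians were 2.03% and 1.29%. Single markers reached 63.4% and 101% (Postn) and single members 18.7% (Hoxc11) and 5.29% (Hoxd13). Pooled over genes, the markers were at 4.90% and 3.86% and the members at 1.80% and 0.628%. The neural cells still carried anterior Hox genes, and Hoxb4, Hoxb5 and Hoxa5 were at 95.5% to 1054% of their mesenchymal levels. Whether free RNA accounts for the members' UMIs in neural cells was not tested.

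The region comparison asked where along the gut the genes are used. The LI libraries lay above both SI libraries for every member in other mesenchyme, Acta2-high cells and mesothelial cells. In Acta2-high cells, Hoxa11 had 0 UMIs of 35717810 in SI and was at least 554-fold higher in LI, taking 3 UMIs over both SI libraries as the floor. Hoxd11 had 11 UMIs in SI and was 670-fold higher (counting interval 374 to 1342), and Hoxc10 had 14 and was 117-fold higher (69.5 to 213). These folds set the mean of the LI libraries over the pooled SI UMIs, and the SI libraries differed beyond the counting intervals: SI 1 held 0 of the 11 and 1 of the 14 UMIs and SI 2 the rest. Some of these UMIs came from a small cluster of SI 2 described further on; without it Hoxc10 had 4 UMIs and was 408-fold higher (159 to 1497), and Hoxd11 had 6 and was 1226-fold higher (563 to 3342). In mesothelial cells Hoxd11 was at least 188-fold, Hoxd10 at least 71.4-fold, Hoxa11 at least 56.7-fold and Hoxa13 at least 12.4-fold higher in LI. These counting intervals and floors cover counting error only.

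Both groups gave calls in the edgeR fit. In Acta2-high cells 8 of the 9 members were tested and 7 called lower in SI, at a background of 0.392% called lower and 0.0735% higher. With groups taken from clusters, 2 of 5 tested members were called. The Acta2-high cells of the regions lay in different clusters: 45.8% and 56.2% of those of SI were in the Myh11 cluster against 17.9% and 28.0% of those of LI, and 25.2% and 31.2% of those of LI were in the Epha5 cluster against 3 and 2 cells of SI. Hoxd12 had an adjusted p of 0.053 and Hoxd13 did not pass the filter on low counts. In mesothelial cells 6 of the 9 were tested and all 6 called lower in SI, at a background of 0.605% called lower and 0.472% higher, while Hoxc11, Hoxd12 and Hoxd13 did not pass the filter. As the members passed the filter through their LI counts, the number called is a description and no measure of how the genes behave as a set. In neural cells no member passed the filter (background 0.256% lower and 0.0985% higher).

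In other mesenchyme the SI libraries differed from each other. SI 1 held 19 UMIs of the 9 members and SI 2 held 993. Hoxa10 was at 0.035 and 10.9 CPM, Hoxd11 at 0.070 and 10.5, Hoxc10 at 0.417 and 8.17 and Hoxd10 at 0 and 3.50 in SI 1 and SI 2. Both SI values were below both LI values for each of them, and SI 2 was the higher. Hoxa13, at 0.104 and 0.113, and Hoxd13, at 0.035 and 0.038, did not show this step. With all cells, edgeR called 4 of the 9 lower in SI at a background of 1.60% lower and 0.892% higher: Hoxa11, Hoxa13, Hoxd10 and Hoxd13. A fit with the replicate number as a block called 8. With any 1 of the 4 libraries left out, 8 or 9 were called, and DESeq2 called 2, with 6 at an unadjusted p under 0.05.

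The UMIs of SI 2 came from a small cluster. Clustering on all genes other than Hox genes gave a cluster led by Pf4, Afp, Mt1, Rbp4 and Foxd1, with 121 cells in SI 2, 39 in SI 1, 9 in LI 1 and 7 in LI 2. Liver (Alb, Apoa2, Fgb) and globin (Hbb-bt) transcripts were also among its 10 leading genes, which were taken over the cluster as a whole. Afp was found in 1.65% of its SI 2 cells and 2.56% of its SI 1 cells, and Hbb-bt in 0% and 17.9%. In SI 2, 110 of the 121 cells (90.9%) held a UMI of a posterior Hox gene, and they held 907 of the library's 1068 such UMIs (84.9%). In SI 1, 0 of its 39 cells held one, which allows a share of cells with a UMI of up to 7.69%. Elsewhere 62 of 6126 cells of SI 2 (1.01%) and 18 of 5099 of SI 1 (0.353%) held one.

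These SI 2 cells had group 10 and 11 genes and hardly any group 13 gene. Hoxa10 was found in 89 of them, Hoxd11 in 83, Hoxc10 in 62, Hoxd10 in 54, Hoxa11 in 45, Hoxc11 in 21, Hoxd12 in 14, Hoxa13 in 2 and Hoxd13 in 1. Their gut mesenchyme genes were low: Foxf1 was at 13.1 CPM against 387 in the other cells of SI 2, and Nkx2-3 at 13.8 against 188. Foxd1, a transcription factor of kidney stroma, was at 300.5 against 1.11, Pax2, a kidney and urogenital gene, at 59.9 against 0.126, and Prrx1, a mesenchymal gene of limb and trunk, at 66.9 against 0.323. The SI 1 cells of the cluster were of another kind: Foxd1, Pax2 and Prrx1 were at 0 in them, Foxf1 at 93.0 CPM and Barx1, a stomach mesenchyme gene, at 130.8 against 0.77 in the SI 2 cells, so the shares of the 2 libraries do not compare like cells. The origin of these cells was not tested. Without the cluster all 9 members were called lower in SI other mesenchyme (background 2.42%), with log2 fold changes from -5.92 (Hoxc10) to -10.2 (Hoxa11), a comparison added after the data had been seen.

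Outside that cluster, Hoxc10 had the most UMIs of the members in SI, a count that is not scaled for gene length. SI other mesenchyme then held 79 UMIs of Hoxc10 among 53500394, 35 of Hoxa10, 16 of Hoxd11, 8 of Hoxd10, 4 of Hoxa13, 2 each of Hoxa11 and Hoxc11, 1 of Hoxd13 and 0 of Hoxd12. Hoxc10 was 68.2-fold higher in LI (counting interval 54.8 to 86.2), where Hoxd11 was 795-fold higher (490 to 1391) and Hoxa11, with 2 UMIs in SI, had a ratio of 1488 (412 to 12284). These ratios pool libraries that differed: of the 79 UMIs of Hoxc10, 12 were from SI 1 and 67 from SI 2 (0.426 and 2.65 CPM), and of the 16 of Hoxd11, 2 and 14, a difference that the counting intervals do not cover. The part of the Hoxc5 overlap in the Hoxc10 counts was not tested.

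Within single cells, the share of cells with a UMI was compared after thinning each cell to 3000 UMIs, which left out 897 cells of LI 1 and 168 of LI 2 in other mesenchyme as too shallow. A UMI of at least 1 member was found in 73.5% of LI other mesenchyme cells in LI 1 and 73.9% in LI 2, before thinning in 78.8% and 85.4%. The shares were 57.6% and 54.0% in Acta2-high cells, 61.9% and 70.2% in mesothelial cells and 6.06% and 1.61% in neural cells, the group taken as background. In SI other mesenchyme they were 0.298% and 3.96%, the SI 2 value lying mainly in the Foxd1 cluster, outside which 1.01% of all kept SI 2 cells held a member before thinning. Their unthinned median depths in LI were 4138 and 8385 UMIs per cell for other mesenchyme and 12527 and 21147.5 for neural cells.

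By gene, the thinned shares in LI other mesenchyme were 37.2% and 47.1% for Hoxa10, 27.6% and 33.3% for Hoxd10 and 25.0% and 23.4% for Hoxc10. For the group 11 genes they were 34.3% and 33.5% for Hoxd11, 14.2% and 13.5% for Hoxa11 and 2.15% and 2.66% for Hoxc11. Hoxa13 was found in 3.20% and 1.96% of cells, Hoxd13 in 1.05% and 0.792% and Hoxd12 in 0.645% and 0.380%. Single members lay at 0% to 3.0% in LI neural cells. The counts of Hoxd11 were the most uneven in relation to their mean. Its mean level would give a UMI in 53.8% and 51.2% of cells if each cell had the same level (a Poisson spread), and its variance was 2.39 and 2.29 times its mean.

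Cells held either several members or none more often than independent genes would. Had the 9 genes been drawn independently at their own shares, 82.1% and 85.3% of other mesenchyme cells would have held at least 1, above the 73.5% and 73.9% observed. Independence would have put 4 or more members into 2.83% and 3.40% of cells, and 5.81% and 8.20% held them. In Acta2-high cells the same expectation for at least 1 member was 76.6% and 74.5%, against 57.6% and 54.0%. These expectations pool clusters with unlike levels. Within the Epha5 cluster 5.52% and 5.74% of LI cells held no member, against 5.70% and 3.75% expected. In the Myh11 cluster 71.0% and 87.4% held none, against 61.7% and 78.8%. Cells of one library are not replicates, so these shares carry no test.

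For pairs of members, the number of cells with both was set against the number expected from their shares. In LI other mesenchyme 25 pairs had at least 5 expected cells in both libraries, and their median ratio of observed to expected was 1.20 and 1.24, with 17 of 25 above 1 in each library. Within the clusters made without Hox genes, the medians were 1.15 and 1.12. Hoxc11 and Hoxd11 were found together in 69 cells against 30.9 expected in LI 1 and in 61 against 28.2 in LI 2, and Hoxa11 and Hoxd11 gave ratios of 1.71 and 1.80. These pairs lie on different chromosomes, so members of different clusters shared cells. Pairs of the same Hox cluster had median ratios of 1.30 and 1.12 (7 pairs) and pairs of different clusters 1.19 and 1.24 (18 pairs).

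At 3000 UMIs several pairs with a group 13 gene were below 1. Hoxd10 and Hoxd13, in the same cluster, were found together in 1 cell against 12.1 expected in LI 1 and in 2 against 8.3 in LI 2. Hoxa13 and Hoxd10 shared 14 cells against 37.0 and 5 against 20.6, and Hoxa13 and Hoxc10 gave ratios of 0.48 and 0.21. The lowest ratio over the 25 pairs was 0 in LI 1 and 0.21 in LI 2, and within clusters 0 and 0.33. Hoxc10 and Hoxd13 shared 0 cells against 10.99 and 2 against 5.85, where the counting interval of LI 2 includes 1. Hoxd11 and Hoxd13 gave 0.33 and 0.36, where the counting interval of LI 2 reached 1.05. Hoxa13 was within counting error of 1 with Hoxd11 (0.93 and 0.82) and with Hoxa10 (0.86 and 0.89). Hoxa11 with Hoxa13 was within counting error of 1, at 1.31 (0.85 to 1.94) and 1.67 (0.91 to 2.81). Thinning to 2000 UMIs moved several of these values. Hoxd10 and Hoxd13 then shared 2 cells against 5.35 and 2 against 3.45, ratios of 0.37 and 0.58 with counting intervals that include 1. Hoxa13 with Hoxd10 was at 0.47 and 0.53, with Hoxc10 at 0.23 and 0.31 and with Hoxa11 at 0.99 and 0.83. At 3000 UMIs Hoxa13 and Hoxd13 themselves shared 6 cells against 1.41 expected and 5 against 0.49, numbers too small for a ratio to be read closely.

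**Figure D3:**
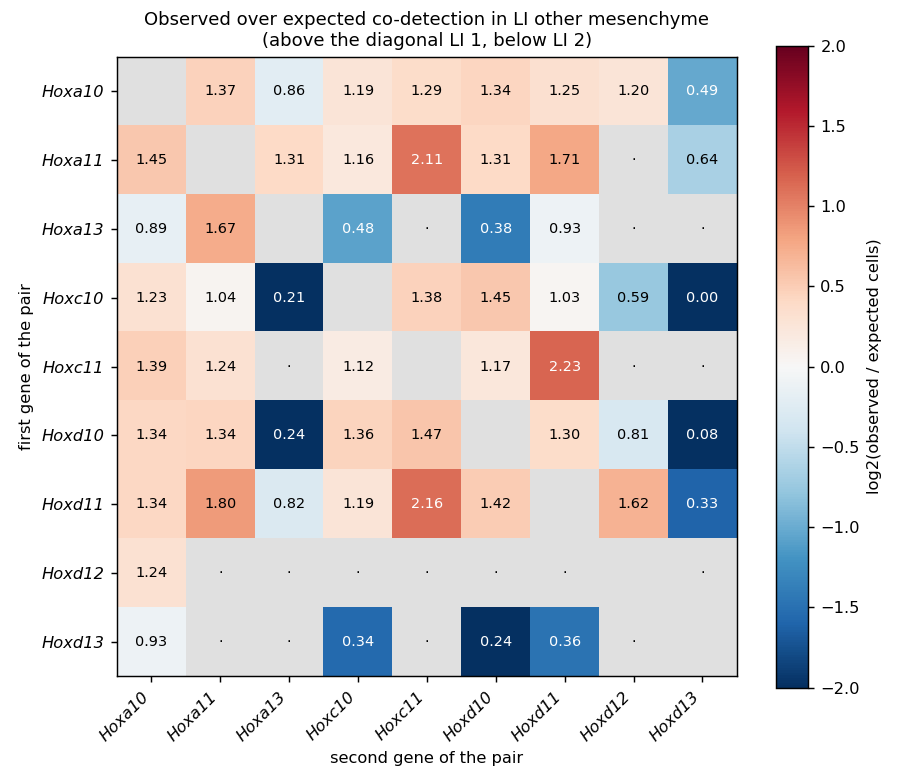
Observed over expected number of LI other mesenchyme cells with both genes of a pair, after thinning to 3000 UMIs, with LI 1 above the diagonal and LI 2 below it, coloured on a log2 scale. Pairs with under 5 expected cells are left as a point. Most pairs of group 10 and 11 genes are above 1, while Hoxd10 with Hoxd13 (0.08 and 0.24) and Hoxc10 with Hoxa13 (0.48 and 0.21) are far below it.

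Taken from the group 13 side, 172 other mesenchyme cells of LI 1 and 82 of LI 2 held Hoxa13 or Hoxd13. Hoxd10 was found in 8.72% and 8.54% of them and in 28.4% and 33.9% of the remaining cells. Hoxc10 was found in 9.30% and 6.10% against 25.6% and 23.9%. Hoxa11 was at 16.3% and 18.3% against 14.1% and 13.4%, an order that turned at 2000 UMIs (8.85% and 5.77% against 10.1% and 9.56%), Hoxd11 was at 27.9% and 24.4% against 34.6% and 33.8%, and Hoxa10 was at 28.5% and 42.7% against 37.5% and 47.2%. Hoxc10 and Hoxd10 were thus found less often in the cells with a group 13 gene in both libraries, and the gaps for Hoxa10 and Hoxd11 were smaller.

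Clusters of LI cells divided in the same way, which is a further view of the same cells and no second observation. Clusters were made without any Hox gene and are called here by their leading genes, and 11 of the 17 had at least 100 cells in both LI libraries. Levels are given as the mean over the 2 libraries of the ratio to LI other mesenchyme, as a description with no test. Hoxa13 and Hoxd13 were highest in 3 clusters: that led by Hist1h2bc, Epcam and Ccnb2, at 2.96 and 2.36, that led by the histone genes Hist1h1b and Hist1h1a beside 2810417H13Rik, at 2.05 and 2.88, and that led by the cell division genes Ube2c, Tuba1c and Nusap1, at 2.44 and 1.64. Hoxc10 was at 0.49, 0.53 and 0.62 and Hoxd10 at 0.54, 0.57 and 0.63 in these clusters.

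Not every cluster led by cell division genes was high in Hoxa13. The cluster led by Ndc80, Mxd3 and Aspm had Hoxa13 at 0 and 0.18 in LI 1 and LI 2, while Hoxd13 was near other mesenchyme in LI 1, at 0.88 (6 UMIs), and at 0.08 (1 UMI) in LI 2. Epcam, an epithelial gene that the sort selected against, was at 51.8 and 42.2 CPM in the Hist1h2bc cluster. It had UMIs in 17.7% and 24.3% of the cells there. Krt18 was at 74.3 and 31.7 CPM in the same cluster and Krt8 at 18.7 and 10.5. The epithelial genes Cdh1 and Cldn6 had 0 UMIs there in both libraries, and at most 3 in any other cluster of an LI library. The summed level of 5 epithelial markers was 144.8 and 84.4 CPM in the Hist1h2bc cluster and 851 and 464 in the mesothelial cluster. The cluster led by Pitx1 and Sall4, low in Hoxa13 and Hoxd13, had Epcam as high, at 51.8 and 58.7 CPM, and an epithelial sum of 144.6 and 102.9.

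In the cluster led by Pitx1 and Rgs6, which held 851 and 631 cells, Hoxa13 and Hoxd13 had 0 UMIs in both libraries, while Hoxa10 was at 1.37, Hoxc10 at 1.39 and Hoxd10 at 1.19 times other mesenchyme. In the Hist1h2bc cluster 11.5% and 9.70% of cells held a UMI of Hoxa13 or Hoxd13 at 3000 UMIs. The neighbouring cluster led by Pitx1 and Sall4 was likewise high in group 10 and low in group 13 genes, with Hoxa10 at 1.58, Hoxc10 at 1.51, Hoxa13 at 0.11 and Hoxd13 at 0.

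Other clusters differed in the amount of most members. In the cluster led by Epha5, Fst and Wnt16, Hoxd11 was at 2.01, Hoxc11 at 1.82, Hoxd10 at 1.70 and Hoxa11 at 1.61, while Hoxd13 was at 0.15, and 5.52% and 5.74% of its cells held no member at 3000 UMIs. In that led by the smooth-muscle genes Myh11, Cnn1 and Actg2 all 9 were at 0 to 0.55 in the single libraries, and 71.0% and 87.4% of cells held none. The cluster led by Sptssb, Wnt4 and Adamtsl1 had Hoxc10 at 1.06 and 0.98, Hoxd12 at 1.33 (6 UMIs) and 0.30 (2 UMIs), and the other members at 0.05 to 0.57 in the single libraries. In the neural cluster led by Foxd3 and Sox10 every member was at 0.06 or below.

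**Figure D4:**
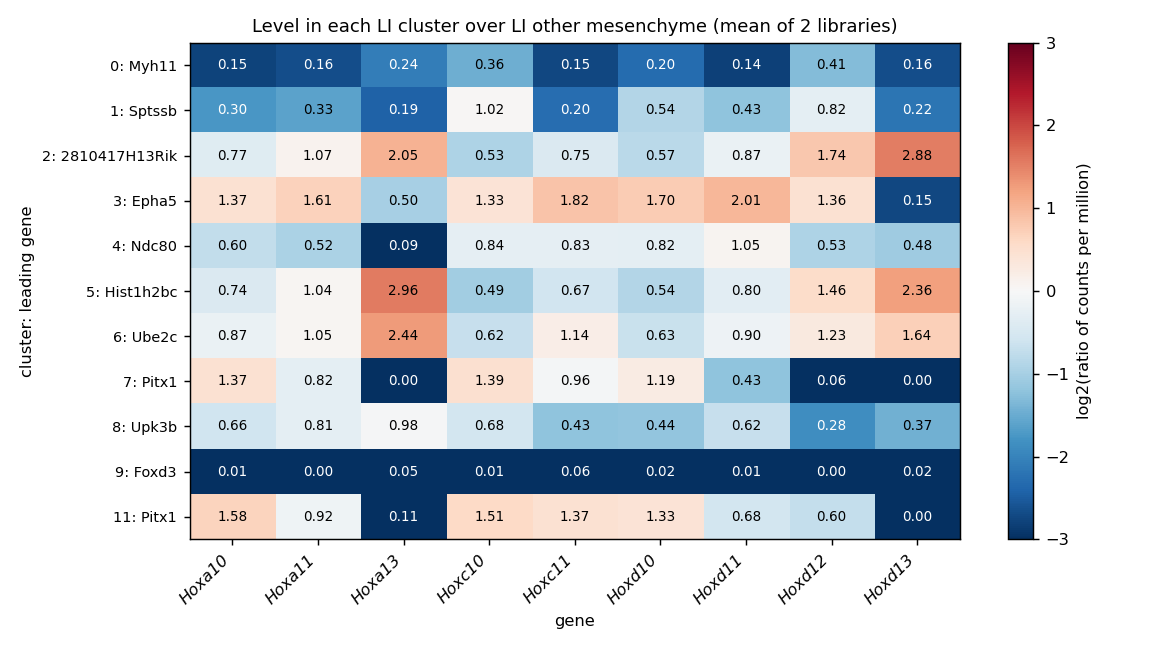
Level of each member in 11 clusters of LI cells over its level in LI other mesenchyme, as the mean of the ratios of 2 libraries on a log2 colour scale that ends at -3 and 3, with each cluster named by a number and its leading gene. The rows led by 2810417H13Rik, Hist1h2bc and Ube2c are highest for Hoxa13 and Hoxd13 (1.64 to 2.96), the row of cluster 7, led by Pitx1, is at 0 for both, and the Myh11 row is low for all members.

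The more anterior Hox genes of groups 1 to 9 were called in both directions. In other mesenchyme all 27 were tested, and 13 were called higher and 7 lower in SI, at a background of 0.892% higher and 1.60% lower, with a median log2 fold change of +1.26 against 0.01 over all genes. Hoxb7 was at 40.3 and 31.9 CPM in SI and 5.34 and 4.99 in LI, a log2 fold change of +2.96 (SE 0.22, adjusted p = 0.0024 in edgeR). Hoxb8 rose by +3.19 (SE 0.25, adjusted p = 0.0027). Hoxd4 was at 2.99 and 3.31 in SI and 52.9 and 50.9 in LI, or -3.89 (SE 0.20, adjusted p = 5.9e-04), and Hoxd8 was at -2.15. Unlike Hoxa10 and Hoxd11, these 4 genes had close values in both SI libraries. In Acta2-high cells 5 of 25 tested were higher and 4 lower in SI, in mesothelial cells 9 and 3 of 23, and in neural cells 5 and 0 of 15. Over all genes 0.0735% were higher and 0.392% lower in Acta2-high cells, 0.472% and 0.605% in mesothelial and 0.0985% and 0.256% in neural cells.

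Hoxd9, the neighbour of Hoxd10, was the gene of groups 1 to 9 most like the members (Pearson's r = 0.99 with their mean over 16 sums), and the other group 9 genes were at r = 0.95 (Hoxa9), 0.87 (Hoxb9) and 0.72 (Hoxc9). Hoxd9 in LI was at 206 and 149 in other mesenchyme and at 1.60 and 0.960 in neural cells, and in SI other mesenchyme at 0.24 and 4.07. It was lower than in other mesenchyme in all 3 other LI groups, by -1.40 in mesothelial cells (SE 0.12), -1.30 in Acta2-high cells (SE 0.12) and -6.99 in neural cells (SE 0.26), each past the adjusted threshold. Of 26 tested genes of groups 1 to 9, 3 were higher and 4 lower in mesothelial cells, 4 and 4 in Acta2-high cells and 9 and 11 in neural cells. Over all genes 15.5% were higher and 12.4% lower in mesothelial cells, 2.04% and 1.40% in Acta2-high cells and 24.2% and 26.8% in neural cells, so the mesothelial count was near that of any genes. In neural cells Hoxb5 was higher by +3.48 (SE 0.26) and Hoxb4 by +2.49 (SE 0.18).

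The TALE cofactors did not pass the region test in any group, with 0 of 9 called in other mesenchyme and in Acta2-high cells by edgeR (0 at an unadjusted p under 0.05 in both, and 0 by DESeq2), 0 of 8 in mesothelial cells (2 unadjusted, and 1 lower in SI by DESeq2) and 0 of 9 in neural cells (2 unadjusted, and 0 by DESeq2). Between cell groups of LI some were called. Meis2, a frequent Hox partner, was at 851 and 1088 in other mesenchyme and 20.1 and 15.4 in neural cells, a log2 fold change of -5.76 (SE 0.13, adjusted p = 8.4e-14). In neural cells 6 of 9 were lower and 1, Pbx4, higher, in mesothelial cells 4 and 1 and in Acta2-high cells 2, Meis2 among them, and 0, where over all genes 26.8% and 24.2%, 12.4% and 15.5%, and 1.40% and 2.04% were called.

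Non-Hox genes next to the clusters showed few region calls. Of 16 listed, 13 were in the tables and 9 tested in other mesenchyme, where Hotairm1, a non-coding RNA at the 3′ end of HoxA, was higher in SI by +3.07 (SE 0.29) and Hoxd3os1 lower by -2.46 (SE 0.26). In Acta2-high cells 1 of 8 was higher, in mesothelial cells 0 of 8 (2 at an unadjusted p under 0.05, and 0 by DESeq2) and in neural cells 0 of 7 (1 unadjusted, and 0 by DESeq2) were called by edgeR. The shares over all genes in these region tests are those given above for the anterior Hox genes. Between LI groups, 2 were higher in mesothelial cells, 0 were called in Acta2-high cells by edgeR (3 at an unadjusted p under 0.05, and 0 by DESeq2), and 4 were higher and 4 lower in neural cells. Over all genes 15.5% were higher in mesothelial cells, and 24.2% were higher and 26.8% lower in neural cells.

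The genes outside the Hox family whose pattern was most like the mean of the members were Pitx1 (Pearson's r = 0.96), Gm14396 (0.96), Asic2 (0.95), Stra6l (0.95) and Vstm2l (0.94), over 16 sums and 12434 genes. Pitx1, a homeobox gene of the hindlimb, was at 169 and 135 CPM in LI other mesenchyme and 0.035 and 0.263 in SI. Among Hox genes of groups 1 to 9, Hoxb4 was the most opposed (r = -0.92). The 16 sums share their libraries and the gap between regions, so these values are descriptions.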

How the data were processed

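Counts per cell were deposited by the authors as Cell Ranger 3.1.0 tables on mm10, in UMI counts with no normalization; the whole table was used as deposited. The members and gene lists were chosen with earlier results of these data known. Cells with at least 1000 genes and at most 10% mitochondrial UMIs were kept, the cells with the highest Scrublet scores (scanpy 1.11.5; 0.8% per 1000 cells) were removed as doublets, 332, 183, 231 and 348 in LI 1, LI 2, SI 1 and SI 2, and cells were grouped by marker genes. Clusters (Leiden, leidenalg 0.10.2) were made without Hox genes, once at a fixed precision, and their borders within mesenchyme move with small numerical changes. UMIs were summed per library and group and tested with edgeR 4.0.16 (quasi-likelihood, TMM, filterByExpr, Benjamini-Hochberg, threshold 0.05), group contrasts with library as a block. DESeq2 1.42.0 was an alternative. The count tests were also run on simulated counts with a fixed spread for all genes, from which no error rate for these libraries follows. With 2 libraries per region an exact permutation test cannot go below p = 0.333, so p-values come from the fits across all genes. In the region fits they measure the spread between 2 pools. In the group contrasts they measure the spread left among the sums of both regions after the library block. The named genes of each list were those with the smallest p in each direction, up to 2. The second marker of the neural gate is not reported here, and cells with it but no Sox10 were left out of the 4 groups.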

Additional observations from a re-analysis of the deposited data

How the results depend on the processing

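Member log2 values kept their side of the threshold in 521 of 598 alternatives, with their direction apart from 6 values that were never called; 50 passed the threshold only there and 26 only as first fitted. The 1 called reversal was Hoxc11 in Acta2-high cells of LI, at -3.01 when groups were taken from clusters in place of marker genes against +0.43. The count of members called lower in SI other mesenchyme, 4 of 9, was 9 by clusters, 9 with no filter on low counts, 9 without the Foxd1 cluster, 8 with a replicate block, 2 by DESeq2 and 8 to 9 with any 1 library left out, where a lone library is assumed to vary like the others. For Acta2-high cells against other mesenchyme in LI, 3 of 9 became 8 by clusters, 0 by DESeq2 (2 at an unadjusted p under 0.05) and 1 to 3 with a library left out, the 1 being without LI 2. For mesothelial cells, 4 of 9 became 0 by DESeq2, 2 by DESeq2 on the LI libraries alone, and 3 to 4 with a library left out. For neural cells, 9 of 9 became 6 by DESeq2 and 6 to 9 with a library left out, the 6 being without LI 2. Between regions, Acta2-high cells gave 6 to 8 with a library left out and 2 (of 5 tested) by clusters, mesothelial cells 6 and neural cells 0. The replicate block gave 8, 6 and 0 in these 3 groups, and same-numbered libraries correlated in their deviations at 0.217 to 0.386, which with 2 pairs does not show that they are paired. The mean share of LI other mesenchyme cells with a member was 73.7% at 3000 UMIs and 65.3% at 2000. The cause of these changes was not tested. Hoxd12 and Hoxd13 had few UMIs and were near the filter in several groups, and whether depth limits them was not tested.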
